A study of Mus musculus with 6 samples.

Results

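The genes described here make up the machinery by which cells oxidise, conjugate and export drugs and other foreign or endogenous small molecules. They were chosen by symbol: cytochrome P450 genes of families Cyp1 to Cyp4, UDP-glucuronosyltransferase genes of families Ugt1 to Ugt3, sulfotransferase genes of families Sult1 to Sult6, the receptors Ahr, Ahrr, Nr1i2 and Nr1i3, the reductase Por, and the efflux transporters Abcb1a, Abcb1b, Abcc2, Abcc3 and Abcg2. The rule found 86 of the 25067 rows of the gene table, made up of 53 Cyp, 14 Ugt and 9 Sult genes, 4 receptors, 1 reductase and 5 transporters. Of the 53 Cyp genes, 7 are pseudogenes by name, and Cyp2d13 is annotated as a transcribed pseudogene. The rule uses symbols alone, although it was written with earlier results of these data known.

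RNA was sequenced from colonic organoids, which are crypts grown as epithelial cultures, here with WNT3A, EGF, Noggin and R-spondin 1 in the medium. All 6 libraries came from C57BL/6 mice 8 weeks old that carried floxed alleles of both Prkci and Prkcz, the genes of the atypical protein kinases C (aPKC), with a Cre recombinase fused to a modified oestrogen receptor and driven by the epithelial Villin promoter (Prkci f/f and Prkcz f/f with the Villin-CreERT2 transgene). One group of 3 libraries had received ethanol as vehicle and the other group of 3 had received 4-OH-Tamoxifen (4-OHT), the ligand that activates this Cre, for 3 days. The labels call the vehicle libraries wild type although they carry the same floxed alleles and transgene, and no library of 4-OHT on organoids without the floxed alleles or without Cre was analysed here. Loss of aPKC, activity of Cre and exposure to 4-OHT itself therefore cannot be told apart in any comparison below. Whether the libraries of a group came from separate mice or cultures is not stated, so the p-values measure the spread between these libraries only.

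The libraries held between 15804709 and 26957612 reads, and values are normalized counts, that is, reads divided by a size factor for each library. Prkcz fell from 912 ± 37.9 to 281 ± 13.6 normalized counts (mean ± SD, n = 3 per group; log2 fold change -1.70, limma adjusted p = 3.2e-12) and Prkci fell from 3520 ± 86.9 to 3021 ± 132 (-0.22, adjusted p = 8.1e-04), and because these counts cover whole genes they do not show how many copies had lost the floxed exons. All 10 markers of colonic epithelium were detected in every library, with a sum of 10322 to 10645 RPM (reads per 1000000 reads of the library) with vehicle and 13073 to 14096 with 4-OHT. Libraries 2 and 3 of the 4-OHT group stood apart from the other 4: the 14 markers of small intestine and Paneth cells summed to 39.8 and 40.6 RPM in them against 5.69 to 8.68 with vehicle and 6.95 in 4-OHT library 1, and the 7 markers of plasma cells and leukocytes to 10.9 and 5.23 against at most 0.316. Markers of smooth muscle summed to 3.22 and 8.18 RPM in these libraries, against at most 0.727 in the other 4, and those of fibroblasts to 17 and 171 reads, against 6 to 22. The 37 genes of the set that could be tested were therefore also compared using 4-OHT library 1 alone. Hepatocyte markers, of interest because the liver is the main site of these enzymes, summed to at most 1.02 RPM in any library. Among colonic cell types, 4 of 5 tested stem cell markers fell with 4-OHT (sum 1044 to 1067 RPM with vehicle, 818 to 923 with 4-OHT) while 6 of 9 tested markers of absorptive colonocytes rose and 1 fell (sum 557 to 636, then 753 to 885). Of 7 goblet cell markers 5 rose and 1 fell (sum 373 to 467, then 393 to 442). In bulk RNA a change in the number of cells of a type and a change in RNA per cell cannot be told apart, and the part of these shifts in the results below was not tested.

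Drug metabolism is usually described in steps. Cytochrome P450 enzymes of the endoplasmic reticulum insert oxygen into a substrate with electrons that NADPH-cytochrome P450 reductase (Por) hands to their haem. UDP-glucuronosyltransferases (UGTs) and sulfotransferases (SULTs) then attach glucuronic acid or sulfate to the oxidised product, and ABC transporters carry parent compounds and conjugates out of the cell. Ligand-activated receptors set the levels of these enzymes: the aryl hydrocarbon receptor (AHR, Ahr) for the Cyp1 family, and the pregnane X receptor (PXR, Nr1i2) and the constitutive androstane receptor (CAR, Nr1i3) for many Cyp2, Cyp3, UGT, SULT and transporter genes. 4-OHT is itself handled by this system, since it is a P450 product of tamoxifen that UGTs and SULTs conjugate.

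Of the 86 genes, 59 (68.6%) were detected, meaning that at least 3 reads were counted in at least 1 library, and 38 reached 3 reads in every library. A further 16 had at most 1 or 2 reads in any library and 11 had 0 reads in all 6. A count of 0 allows up to 3 reads, which is 0.111 to 0.190 RPM at these depths and covers counting error only. Detection was complete for Por, the 5 transporters and the 2 Cyp1 genes that had a row, while Cyp1a2 had no row. It was lowest for the Cyp3 family, of which 1 of 6 genes was detected. It reached 25 of 31 Cyp2, 8 of 14 Cyp4, 7 of 14 Ugt and 7 of 9 Sult genes. A mean normalized count of at least 10, the level required for testing, was reached by 37 genes, and 22 further genes were detected below it.

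**Figure D1:**
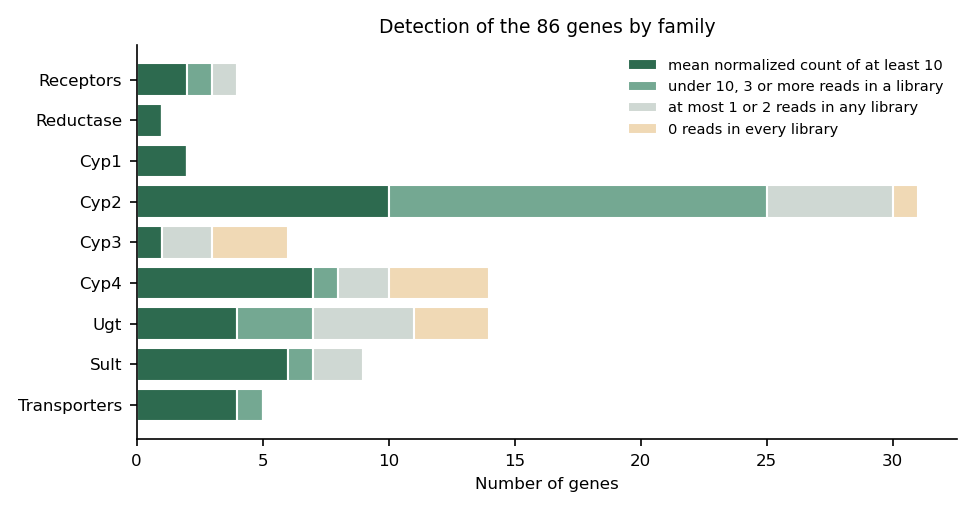
Number of genes in each family (horizontal axis) by detection class, from a mean normalized count of at least 10 (dark green) to 0 reads in every library (beige). The Cyp2 family held the most genes below the level for testing, 21 of 31, and the Cyp3 family had 1 gene of 6 above it.

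Per kilobase of exon, the most abundant transcript of the set was Por, at 2508 normalized counts per kilobase with vehicle and 2866 with 4-OHT, followed in both groups by the transporters Abcc3 (606 and 554) and Abcb1a (548 and 693). The order of the P450 genes of the set differed between the groups. With vehicle the highest levels per kilobase were those of Cyp2s1 (358), Cyp2d34 (346), Cyp2c55 (320), Cyp4f13 (264) and Cyp2j6 (262). With 4-OHT they were those of Cyp2c55 (469), Cyp2d34 (354), Cyp2j6 (346), Cyp4f16 (256) and Cyp4f13 (245), and Cyp2s1 stood at 129. Nr1i2 had 334 and 278 on the same scale, and Cyp1b1 160 and 187.

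Of the 37 tested genes, 15 rose and 7 fell with 4-OHT (limma-trend on log2(normalized count + 1), adjusted p under 0.05 over 13210 rows), and 15 did not pass. The share called was 59.5%, against 43.6% of all tested rows. Rises were called for 22.7% of all tested rows and falls for 21%. The 3 libraries of one group lay wholly above or below those of the other for 22 of the 37 genes (14 above, 8 below, 59.5%), against 52.1% of all rows. A change past the threshold of at least 0.5 on the log2 scale was seen for 10 genes (7 higher, 3 lower), a class that held 14.2% of all tested rows. The median log2 fold change was 0.20 over the 37 genes and -0.0054 over all rows, and the median absolute change was 0.45 against 0.21. The rows were not matched for abundance, so whether the set differs in size of change was not tested. Only 25 of the 37 genes had a mean of at least 50, and some scarcer ones had large changes that did not pass, such as Cyp2w1 (-1.13). With 4-OHT library 1 as the only treated library, assumed to vary like the others, every called gene kept its direction. Several of these genes did not pass the threshold in that fit, which holds 1 treated library. Where the groups did not overlap the direction was fixed in advance, because library 1 is part of the main comparison. In the called genes with overlap, Cyp2c55 changed by 0.67 and Cyp4f14 by 0.84. The change of Abcc3 was -0.07.

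**Figure D2:**
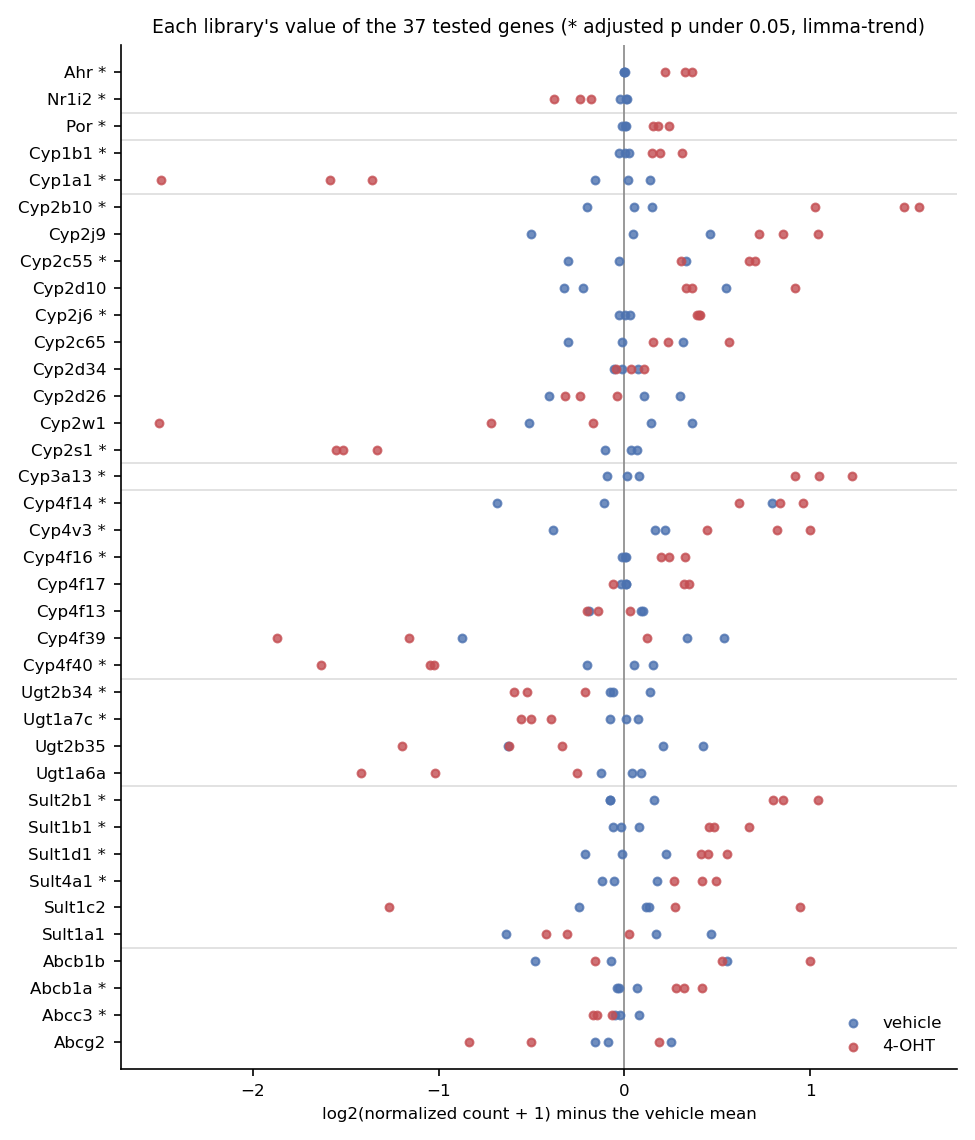
Each point is 1 library (blue, vehicle; red, 4-OHT), plotted as log2(normalized count + 1) minus the mean of the 3 vehicle libraries for each of the 37 tested genes, grouped by role from receptors at the top to transporters at the bottom. An asterisk marks an adjusted p under 0.05: Cyp2b10 and Cyp3a13 lie farthest to the right among these, and Cyp1a1, Cyp2s1 and Cyp4f40 farthest to the left.

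AHR is a cytosolic receptor that, once bound by a ligand, enters the nucleus, pairs with ARNT and binds DNA sites with the core GCGTG. Ahr itself had 474, 472 and 473 normalized counts in the vehicle libraries and 552, 608 and 593 in the 4-OHT libraries. Every 4-OHT library was above every vehicle library, with a log2 difference of 0.30 (SE 0.07, limma adjusted p = 0.0023), and with 4-OHT library 1 alone the change was 0.22 (adjusted p = 0.12). Ahrr, the repressor that competes with AHR for ARNT and is itself an AHR target, had 11, 13 and 6 reads with vehicle and 1, 1 and 2 with 4-OHT. It lay below the level for testing, and in the fit without a filter its log2 fold change was -2.04 (SE 0.59, adjusted p = 0.0093 over 23313 rows).

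Of the P450 genes classically induced by AHR, Cyp1a1 and Cyp2s1 fell and Cyp1b1 rose. Cyp1a1, which oxidises polycyclic aromatic hydrocarbons, had 17.7, 15.6 and 19.4 normalized counts with vehicle and 5.17, 6.22 and 2.28 with 4-OHT. The groups did not overlap, and the change was -1.81 on the log2 scale (SE 0.47, limma adjusted p = 0.0041), at low counts throughout. Cyp1b1, which oxidises the same class of compounds and oestrogens, had 819, 838 and 850 normalized counts with vehicle and 1035, 955 and 928 with 4-OHT, a rise of 0.22 (SE 0.06, adjusted p = 0.0081). Cyp2s1, a P450 of epithelia outside the liver that dioxin also induces through AHR, had 1157, 1183 and 1051 with vehicle and 394, 448 and 385 with 4-OHT. Its fall of 1.47 on the log2 scale (SE 0.08, adjusted p = 1.8e-11) had the smallest adjusted p of the 37 genes. With 4-OHT library 1 alone these changes were -1.59 for Cyp1a1 (adjusted p = 0.021), 0.31 for Cyp1b1 (adjusted p = 0.013) and -1.52 for Cyp2s1 (adjusted p = 1.9e-06).

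Because AHR binds GCGTG, promoter windows are shown for Cyp1a1, Ahrr and Cyp2s1. These are AHR-linked genes with lower values in 4-OHT that were picked by hand, not a full list. The windows run from 250 bases before to the last base before the RefSeq transcript start, in the mouse build GRCm38.p6. They are written 5′ to 3′ on the strand of the gene. Capitals mark GCGTG, which was searched on both strands and was found here only as written. The windows are chr9:57697363-57697612 on the plus strand for Cyp1a1, chr13:74292332-74292581 on the minus strand for Ahrr and chr7:25816526-25816775 on the minus strand for Cyp2s1.
Cyp1a1: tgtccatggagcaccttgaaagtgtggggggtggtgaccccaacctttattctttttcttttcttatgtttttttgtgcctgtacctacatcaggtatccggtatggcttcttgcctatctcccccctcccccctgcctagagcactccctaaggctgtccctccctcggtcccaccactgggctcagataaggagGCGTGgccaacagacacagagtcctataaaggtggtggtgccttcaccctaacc
Ahrr: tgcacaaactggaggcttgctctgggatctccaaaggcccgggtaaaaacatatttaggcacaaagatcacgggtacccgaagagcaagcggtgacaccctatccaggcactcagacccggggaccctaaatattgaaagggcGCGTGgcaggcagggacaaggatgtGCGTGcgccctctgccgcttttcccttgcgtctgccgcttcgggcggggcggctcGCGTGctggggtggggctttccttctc
Cyp2s1: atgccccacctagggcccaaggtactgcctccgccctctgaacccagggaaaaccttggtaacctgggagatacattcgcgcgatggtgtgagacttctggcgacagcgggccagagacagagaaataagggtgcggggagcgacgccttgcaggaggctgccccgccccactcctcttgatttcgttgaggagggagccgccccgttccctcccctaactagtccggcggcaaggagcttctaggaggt
Cyp1a1 held 1 copy, beginning 54 bases before the start, Ahrr held 3, beginning 107, 82 and 27 bases before it, and Cyp2s1 held 0 in these letters. Cyp1b1, which rose, also held 1 copy in its window, which is not shown. Of the AHR targets outside the set that are described next, Tiparp held 1 copy and Nqo1 held 0 in windows not shown. At least 1 copy was present in the windows of 30.9% of 27025 genes with a RefSeq promoter, and in 27.7% of the 65 genes of the set that had one. By call, windows with a copy were found for 9 of 13 genes that rose and 1 of 6 that fell. They were found for 3 of 13 genes that did not pass and 5 of 33 that were not tested for change. Whether a copy goes with the call was not tested. A match describes the letters of the window and not binding, and the AHR-responsive region known for Cyp1a1 also reaches farther upstream than these windows.

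Other AHR partners and targets went both ways: of 11 tested genes, 3 rose, 3 fell and 5 did not pass, with a median log2 fold change of -0.11. For comparison, 43.6% of all tested rows were called. Tiparp, an AHR-induced ADP-ribosyltransferase that limits AHR activity, fell from 684 ± 67.7 to 565 ± 25.7 normalized counts (-0.27, limma adjusted p = 0.0082). The quinone reductase Nqo1 fell from 772 ± 40.9 to 661 ± 64.7 (-0.23, adjusted p = 0.020), and Ptges3, the p23 co-chaperone of the receptor complex, fell by 0.16. Among those that rose were Gsta1 (0.35) and Nfe2l2 (0.13). Gsta1 and Nqo1 each missed the threshold in several fits that left out 1 library. Without vehicle library 2, for example, they changed by 0.23 (adjusted p = 0.23) and -0.20 (adjusted p = 0.089), and Tiparp by -0.20 without vehicle library 1 (adjusted p = 0.074).

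**Figure D3:**
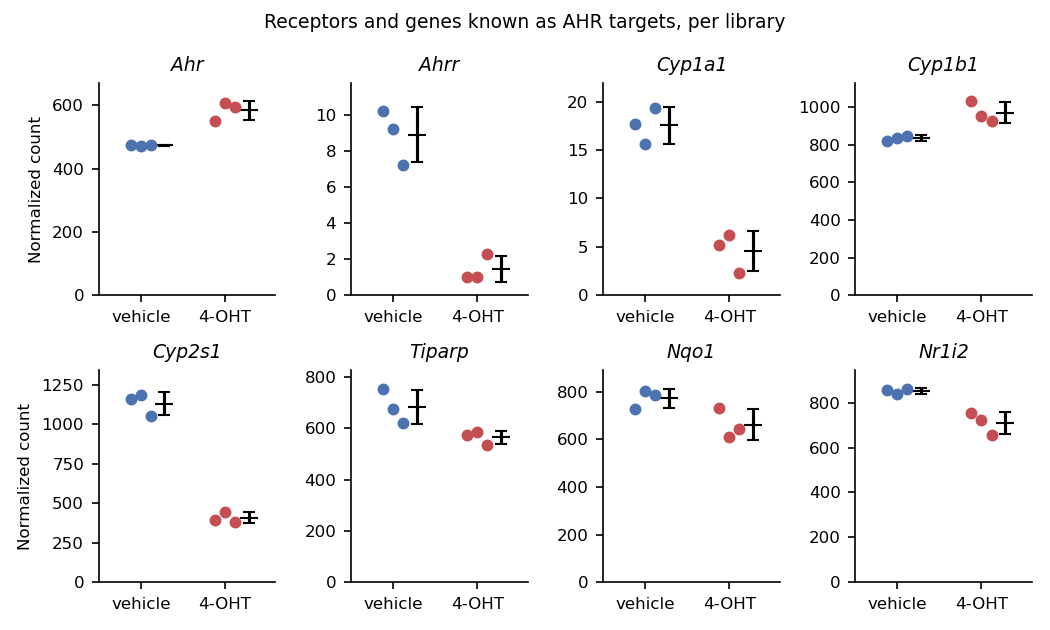
Normalized counts per library (points) with mean ± SD (bars) for the receptors Ahr and Nr1i2, the AHR repressor Ahrr and 5 genes known as AHR targets, in vehicle (blue, n = 3) and 4-OHT (red, n = 3) libraries, each panel starting at 0. Ahr and Cyp1b1 were higher with 4-OHT, Cyp1a1, Cyp2s1 and Nr1i2 were lower with no overlap, and Ahrr, at few reads, lay between 1.03 and 2.28 with 4-OHT against 7.26 to 10.3 with vehicle.

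PXR is the receptor through which many drugs raise Cyp3a, Cyp2b and Abcb1a transcription in liver and gut. Nr1i2, its gene, had 857, 838 and 860 normalized counts with vehicle and 753, 720 and 655 with 4-OHT. All 4-OHT libraries were lower (log2 fold change -0.27, SE 0.07, limma adjusted p = 0.0032), and the change was -0.18 with 4-OHT library 1 alone (adjusted p = 0.12). Nr1i3, the gene of CAR, had at most 1 read in any library. Of 14 tested partners and co-regulators of these receptors, 5 fell, 1 rose and 8 did not pass, where 43.6% of all tested rows were called. The co-activators Ppargc1a (-0.74, adjusted p = 0.0010) and Ncoa1 (-0.51, adjusted p = 5.4e-05), the bile acid receptor Nr1h4 (-0.57, adjusted p = 4.5e-04) and the co-repressor Ncor1 (-0.22, adjusted p = 0.0084) fell, as did the vitamin D receptor Vdr. Esrra, an orphan nuclear receptor, rose by 0.25 (adjusted p = 1.8e-04). Without 4-OHT library 2 the change of Ncor1 was -0.12 (adjusted p = 0.055).

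Por, the main electron donor of the microsomal P450 enzymes, had 6786, 6873 and 6865 normalized counts with vehicle and 7607, 8081 and 7767 with 4-OHT. All 4-OHT libraries were higher, by 0.19 on the log2 scale (SE 0.04, limma adjusted p = 9.2e-04), and by 0.15 with 4-OHT library 1 alone (adjusted p = 0.053). Of the 15 genes of haem synthesis and breakdown and of cytochrome b5, 3 rose and 6 fell, against 43.6% called among all tested rows. Alas1, the rate-limiting enzyme of haem synthesis outside the erythroid lineage, rose from 1303 ± 38.0 to 1547 ± 36.3 normalized counts (0.25, adjusted p = 8.1e-04), and Cyb5a (0.26) and Cyb5r3 (0.20), which supply electrons to some P450 reactions, rose as well. Later enzymes of the same synthesis fell, among them Cpox (-0.42, adjusted p = 4.6e-06), and the haem-degrading oxygenase Hmox1 fell by 0.39 (adjusted p = 2.9e-04). Of 12 tested genes supplying the cofactors for conjugation, only Papss2, which makes the sulfate donor PAPS, passed the threshold (-0.19, adjusted p = 0.017), and it did not without vehicle library 2 (-0.16, adjusted p = 0.089). With TMM factors, quantile normalization, edgeR or a minimum mean of 50, 3 genes of this list fell.

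Genes of the Cyp2b and Cyp3a subfamilies, which in liver are the classical responders to CAR and PXR, showed the largest rises among the called Cyp1 to Cyp4 genes. Cyp2b10 had 32.7, 30.5 and 25.4 normalized counts with vehicle and 61.0, 90.2 and 85.4 with 4-OHT. The groups did not overlap, and the rise was 1.37 on the log2 scale (SE 0.22, limma adjusted p = 5.0e-05), or 2.59-fold. Cyp3a13, a Cyp3a enzyme that mice express in the intestine, had 219, 229 and 203 with vehicle and 411, 509 and 450 with 4-OHT, a rise of 1.06 (SE 0.10, adjusted p = 4.8e-08), or 2.09-fold. Libraries 2 and 3 of 4-OHT, which carried the small-intestinal transcripts, had the higher values of both genes, and with 4-OHT library 1 alone the rises were 1.03 (adjusted p = 0.033) and 0.92 (adjusted p = 6.2e-04). The other 5 Cyp3 genes of the table had at most 2 reads in any library, with 1 read in all for Cyp3a25.

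Of the other Cyp2 genes, Cyp2c55 and Cyp2j6, with roles in fatty acid oxidation, rose. Cyp2c55, a colon-enriched P450 that hydroxylates arachidonic acid, had 509, 791 and 616 normalized counts with vehicle and 1002, 776 and 1026 with 4-OHT. It passed the test (0.56, SE 0.12, limma adjusted p = 7.1e-04) although vehicle library 2 lay above 4-OHT library 2. Its relative Cyp2c65 changed by 0.32 (adjusted p = 0.11), and by 0.48 without vehicle library 2 (adjusted p = 0.026). Cyp2j6, a fatty acid epoxygenase of the gut, had 947, 964 and 926 normalized counts with vehicle and 1242, 1250 and 1255 with 4-OHT (0.40, SE 0.06, adjusted p = 7.6e-06). Cyp2j9 lay higher in all 4-OHT libraries at low counts, 9.38 ± 3.36 against 17.4 ± 2.06, without passing the test (0.87, adjusted p = 0.088).

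The Cyp2d subfamily includes the mouse counterparts of the human enzyme CYP2D6 that forms 4-OHT from tamoxifen. Its 10 genes include 3 pseudogenes by name, and Cyp2d13 is annotated as a transcribed pseudogene. Of the 10 genes, 3 were tested and 0 called, against 43.6% called among all tested rows. Cyp2d34, the most abundant, had 575 ± 26.9 normalized counts with vehicle and 587 ± 31.5 with 4-OHT (0.03, SE 0.07, limma adjusted p = 0.76). Cyp2d26 (-0.20, adjusted p = 0.29) and Cyp2d10 (0.54, adjusted p = 0.24) did not pass either, although without vehicle library 1 Cyp2d26 changed by -0.40 (adjusted p = 0.019). Cyp2d22 had at most 3 reads in any library. Cyp2d9 had 5, 12 and 3 reads with vehicle and 2, 1 and 12 with 4-OHT, with wide overlap. The pseudogene Cyp2d34-ps had 4, 9 and 5 reads with vehicle and 1, 0 and 0 with 4-OHT, and in the fit without a filter its change was -2.31 (adjusted p = 0.0038). Reads of such close paralogs may be assigned to the wrong copy, so the split within Cyp2c, Cyp2d and Cyp4f is uncertain. Cyp2w1, an orphan P450 of fetal and tumour colon, had 19.6, 12.1 and 23.0 normalized counts with vehicle and 10.3, 15.5 and 2.28 with 4-OHT (-1.13, adjusted p = 0.088), and -1.61 without 4-OHT library 2 (adjusted p = 0.028).

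The Cyp4 family, whose enzymes hydroxylate fatty acids and eicosanoids at their methyl end, had 3 of 7 tested genes higher and 1 lower. Among all tested rows, 43.6% were called. Cyp4f40 was lower in every 4-OHT library, with 144, 172 and 184 normalized counts with vehicle and 52.7, 80.9 and 79.7 with 4-OHT (-1.23, SE 0.17, limma adjusted p = 9.3e-06). Cyp4f16 had 484, 477 and 482 with vehicle and 603, 568 and 551 with 4-OHT (0.25, SE 0.07, adjusted p = 0.0081). Cyp4f14, an enzyme that inactivates leukotriene B4, had 86.8, 244 and 130 with vehicle and 251, 216 and 273 with 4-OHT. It passed the test (0.80, SE 0.23, adjusted p = 0.0074) while vehicle library 2 lay within the 4-OHT range, and without vehicle library 1 the change was 0.46 (adjusted p = 0.059). Cyp4v3 rose from 21.0 ± 4.73 to 36.0 ± 7.04 (0.75, SE 0.29, adjusted p = 0.041), a call lost on leaving out any library but vehicle library 3 or 4-OHT library 3, with 0.56 and adjusted p = 0.18 without vehicle library 2, 0.63 and 0.13 without 4-OHT library 1, 0.72 and 0.10 without 4-OHT library 2 and 0.84 and 0.053 without vehicle library 1. Cyp4f13 (-0.11, adjusted p = 0.38), Cyp4f17 (0.20, adjusted p = 0.48) and Cyp4f39 (-0.97, adjusted p = 0.15) did not pass, and Cyp4f39 changed by -1.51 without 4-OHT library 1 (adjusted p = 0.026). Summed over all 53 Cyp genes, the normalized count was 6206 ± 379 with vehicle and 6583 ± 61.6 with 4-OHT, a ratio of 1.06.

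**Figure D4:**
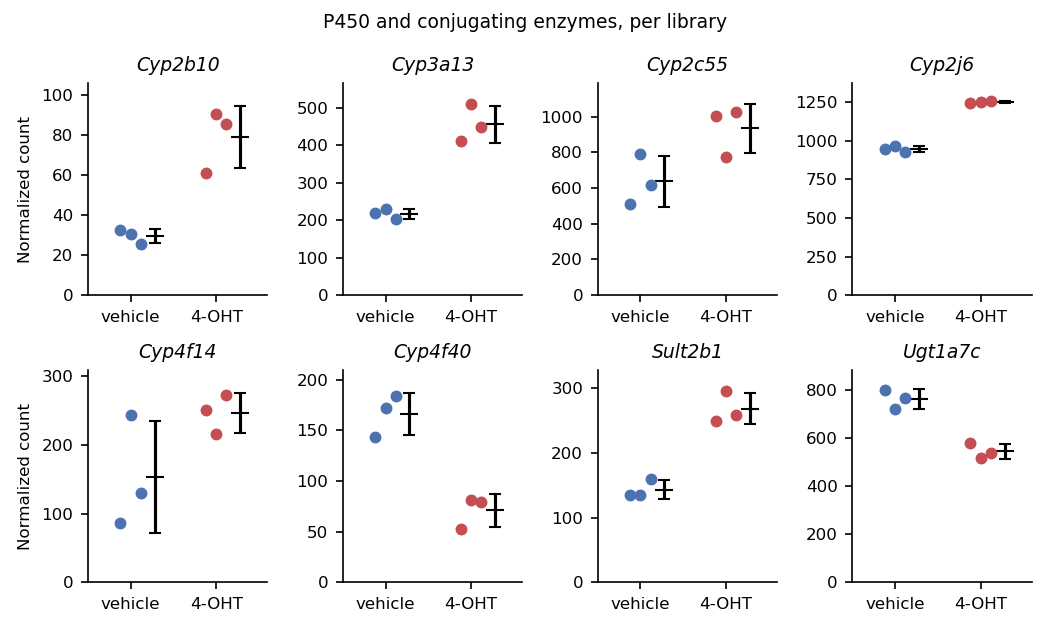
Normalized counts per library (points) with mean ± SD (bars) for 6 P450 genes, the sulfotransferase Sult2b1 and the glucuronosyltransferase Ugt1a7c in vehicle (blue, n = 3) and 4-OHT (red, n = 3) libraries, each panel starting at 0. Cyp2b10, Cyp3a13, Cyp2j6 and Sult2b1 were higher and Cyp4f40 and Ugt1a7c lower with no overlap, whereas the groups overlapped for Cyp2c55 and Cyp4f14.

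In the conjugating families, the 2 Ugt genes that passed the test fell and the 4 Sult genes that passed it rose. Few genes were tested in each family, and 43.6% of all tested rows were called. UGTs, which join glucuronic acid to phenols, bile acids, bilirubin and steroids, had 4 tested genes of 14, of which 2 fell and 0 rose. Ugt1a7c had 800, 720 and 766 normalized counts with vehicle and 579, 517 and 537 with 4-OHT (-0.48, SE 0.07, limma adjusted p = 1.7e-05). Ugt2b34 had 920, 1057 and 909 with vehicle and 666, 635 and 830 with 4-OHT (-0.44, SE 0.09, adjusted p = 3.3e-04). In both genes every 4-OHT library was below every vehicle library, and with 4-OHT library 1 alone the changes were -0.40 (adjusted p = 0.0078) and -0.53 (adjusted p = 0.0022). Together these genes made up 97.0% ± 0.468 of the Ugt values with vehicle and 97.3% ± 0.484 with 4-OHT, and the family sum was 1777 ± 50.1 and 1289 ± 106 normalized counts, a ratio of 0.725.

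The remaining Ugt genes were scarce. Ugt1a6a, which conjugates small planar phenols, had 20.5, 21.3 and 18.2 normalized counts with vehicle and 16.5, 9.33 and 6.83 with 4-OHT, lower in every library without passing (-0.90, limma adjusted p = 0.071), and -1.22 without 4-OHT library 1 (adjusted p = 0.021). Ugt2b35 changed by -0.72 (adjusted p = 0.12), and by -1.03 without vehicle library 1 (adjusted p = 0.040). Ugt1a1, the bilirubin-conjugating enzyme, had 6, 2 and 0 reads with vehicle and 1, 4 and 2 with 4-OHT. Ugt2b5 and Ugt2b36 reached 4 and 3 reads in a library at most, Ugt1a2, Ugt1a6b, Ugt1a9 and Ugt2b1 at most 2, and Ugt1a5, Ugt1a8 and Ugt2a3 had 0 in all. The Ugt1a transcripts share their last exons, so the division of reads among them is uncertain.

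SULTs, cytosolic enzymes that transfer sulfate to phenols, amines and sterols, had 6 tested genes of 9, of which 4 rose and 0 fell. The share called among all tested rows was 43.6%. Sult2b1, which sulfates cholesterol and other hydroxysteroids, had 135, 135 and 160 normalized counts with vehicle and 250, 295 and 260 with 4-OHT. The groups did not overlap (0.90, SE 0.12, limma adjusted p = 4.0e-06, or 1.86-fold), and the rise was 0.80 with 4-OHT library 1 alone. Sult1b1, a phenol and thyroid hormone sulfotransferase of the gut, had 101, 91.5 and 94.4 with vehicle and 131, 134 and 153 with 4-OHT (0.54, SE 0.14, adjusted p = 0.0044). Sult1d1, which acts on catecholamines, had 132, 179 and 153 with vehicle and 205, 226 and 211 with 4-OHT (0.47, SE 0.13, adjusted p = 0.0049). With 4-OHT library 1 alone the changes of Sult1b1 and Sult1d1 were 0.45 and 0.41.

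Sult4a1, a family member best known from brain, had 127, 149 and 121 normalized counts with vehicle and 186, 159 and 176 with 4-OHT (0.39, SE 0.13, limma adjusted p = 0.020). This call was lost without vehicle library 1 (0.37, adjusted p = 0.062) or 3 (0.33, adjusted p = 0.077) and without 4-OHT library 1 (0.34, adjusted p = 0.070) or 3 (0.38, adjusted p = 0.054). With 4-OHT library 1 alone the change of Sult4a1 was 0.49. Sult1a1, the phenol sulfotransferase of the family known to act on 4-OHT, had 16.5 ± 6.25 with vehicle and 13.2 ± 2.38 with 4-OHT, with overlap, and did not pass (-0.24, adjusted p = 0.66). Sult1c2 had 18.0 ± 2.65 and 21.3 ± 14.2 (-0.02 on the log2 scale, adjusted p = 0.98). The sum over the 9 Sult genes was 571 ± 30.6 with vehicle and 840 ± 24.6 with 4-OHT, a ratio of 1.47, and Sult2b1, Sult1d1, Sult4a1 and Sult1b1 made up 92.1% ± 0.518 and 94.6% ± 1.22 of it.

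Among the efflux transporters, Abcb1a, the gut form of P-glycoprotein that pumps hydrophobic drugs into the lumen, had 2666, 2873 and 2678 normalized counts with vehicle and 3654, 3322 and 3415 with 4-OHT. All 4-OHT libraries were higher (0.34, SE 0.05, limma adjusted p = 1.7e-05), also with library 1 alone (0.42, adjusted p = 6.9e-04). Its paralog Abcb1b had 19.5 ± 7.56 and 27.4 ± 10.8 with overlap (0.45, adjusted p = 0.33). Abcc3, which exports glucuronides across the basolateral membrane, had 3201, 2924 and 2977 with vehicle and 2894, 2740 and 2692 with 4-OHT (-0.13, SE 0.05, adjusted p = 0.044). This small fall was lost without vehicle library 1 (-0.09, adjusted p = 0.23) or 3 (-0.14, adjusted p = 0.0503) and without 4-OHT library 2 (-0.12, adjusted p = 0.091) or 3 (-0.11, adjusted p = 0.16). Abcg2, the apical exporter of sulfate conjugates and many drugs, did not pass (62.4 ± 9.90 and 49.3 ± 18.9, -0.39, adjusted p = 0.21), and changed by -0.67 without 4-OHT library 2 (adjusted p = 0.033). Abcc2, the apical carrier of conjugates in liver and small intestine, had 6, 13 and 2 reads with vehicle and 9, 9 and 7 with 4-OHT.

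Below the level for testing, Sult6b1, Cyp2c52-ps and Cyp4b1 were, with Abcc2, the genes with the most reads. Sult6b1 had 9, 13 and 11 reads with vehicle and 13, 7 and 7 with 4-OHT. Cyp2c52-ps had 16, 5 and 6, then 15, 6 and 3, and Cyp4b1 had 2, 17 and 4, then 2, 10 and 1. In these 3 genes the groups overlapped. Cyp2e1, an alcohol-inducible liver P450, had at most 1 read in any library, and Cyp4a14, a fatty acid hydroxylase induced through PPAR alpha in liver, had 0 in all.

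Enzymes outside the rule that act on the same kinds of substrate were also counted. The share to set beside each count is the 43.6% of all tested rows that were called. Of 17 tested oxidising, reducing and hydrolysing enzymes of other families, 8 rose and 3 fell, with a median log2 fold change of 0.26. The carboxylesterase Ces2e rose from 432 ± 37.8 to 760 ± 49.9 normalized counts (0.82, limma adjusted p = 8.9e-08) and the aldo-keto reductase Akr1c13 by 0.55 (adjusted p = 2.6e-08), with Fmo5 (0.79, adjusted p = 0.0082) in the same direction, whereas the carbonyl reductase Cbr3 fell from 496 ± 17.2 to 301 ± 21.9 (-0.72, adjusted p = 1.2e-06). Of 13 tested transferases of glutathione, methyl and acetyl groups, 5 rose, among them Nat2 (0.43, adjusted p = 5.0e-04), and 2 fell, Gsta3 (-0.78, adjusted p = 6.8e-08) and Mgst1 (-0.57, adjusted p = 5.5e-06). Of 10 other carriers, 3 rose and 2 fell, with Abcc10 at -0.65 (adjusted p = 5.5e-06) and Slc22a18 at 0.35 (adjusted p = 3.3e-04). Of 6 P450 genes of other families, the steroidogenic Cyp11a1 rose from 8.62 ± 1.24 to 32.8 ± 7.84 (1.79, adjusted p = 3.2e-04) and the retinoic acid hydroxylase Cyp26b1 fell from 96.0 ± 23.2 to 46.5 ± 11.7 (-1.04, adjusted p = 7.8e-04).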

How the data were processed

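Total RNA of 6 organoid libraries was sequenced, and groups came from the sample labels. The deposited values are a signal of normalized counts, which the authors made by dividing the reads of each gene by 1 size factor per library. The submitters' processing notes name STAR, DESeq2 and the build GRCm39/mm39, with no versions given in the sources used here. Dividing each value by the worth of 1 read gave whole reads, to within 0.1, for 100% of values. The chi-square per degree of freedom between libraries of a group was 3.49 to 6.44, so no library repeats another.

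Rows averaging 10 or more normalized counts were compared by limma-trend (limma 3.58.1, R 4.3.3) on log2(normalized count + 1), with Benjamini-Hochberg adjustment over 13210 rows and a threshold of 0.05. A fold change on this scale understates the change of low genes. Alternatives were pseudocounts of 0.1 and 10, no filter, a minimum mean of 50, TMM factors, quantile normalization, a replicate block, each library left out, 4-OHT library 1 alone, and count tests on the whole reads with edgeR 4.0.16 (5780 rows called) and DESeq2 1.42.0. The comparison was tested on simulated data.

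The genes and lists were chosen with earlier results of these data known. Named were the receptors, reductase and transporters, genes acting on tamoxifen, called genes with a log2 change of at least 0.5, the 3 most abundant of each family, the 5 untested genes with most reads, and up to 5 called genes of each list. The other tested genes, Ahrr's fit without a filter, Cyp2d34-ps, Cyp2e1, Cyp4a14 and Vdr, Cyb5r3 and Nfe2l2 were named after their values were seen, to account for members and lists. Exon lengths came from GENCODE vM21 (85 of 86 genes) and promoters from RefSeq GRCm38.p6, which is not the build of the files. Genes such as Cyp1a2, Cyp3a11, Sult1e1 and those of the Ugt3 family fit the symbol rule but had no row in the gene table. They were therefore not analysed here, and the counts of detected genes leave them out. Some list genes are counted but not reported here by name.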

Additional observations from a re-analysis of the deposited data

How the results depend on the processing

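Over 16 alternatives, the 37 tested genes gave 580 values, of which 535 kept direction and side of the threshold, 27 lost a call, 7 gained one and 11 changed sign. The sign changes were in genes not called: Sult1c2 (0.052 with pseudocount 10, 0.032 with quantile normalization, 0.27 with edgeR, 0.26 with DESeq2, 0.27 with 4-OHT library 1 only, and -0.50 to 0.61 on leaving out 1 library), Cyp2d34 (-0.047 with 4-OHT library 1 only, and -0.0069 to 0.070 on leaving out 1 library) and Cyp4f39 (0.12 with 4-OHT library 1 only). With 4-OHT library 1 only, 3569 rows were called in place of 5765, and 8 of the 37 genes rose in place of 15 and the cause was not tested. Leaving out 1 library gave 4939 to 5630 called rows and 20 to 22 called genes of the set. DESeq2 called 20 (without Cyp4f14, 0.68, and Cyp4v3, 0.80), a mean of at least 50 called 20 of 25 tested, and no filter called 22, of which 20 were shared, with Ahrr and Cyp2d34-ps in place of Abcc3 and Cyp4v3. Libraries with the same number did not deviate together (correlations -0.0074, 0.0303 and -0.0202, against -0.0478 to 0.0474 for other pairs). With the replicate block, 5637 rows and 21 genes of the set were called, without Abcc3 (adjusted p = 0.053), and no other call among the 37 changed. Of 524 values of the other named list genes, 61 lost a call, and none changed sign. Of the list counts, those that moved by over 1.5 times were haem and electron supply, lower (6, and 3 to 6 over the alternatives other than 4-OHT library 1 only), cofactor supply, higher (0, and 0 to 1) and lower (1, and 0 to 3), AHR partners and targets, higher (3, and 0 to 3), PXR and CAR partners, lower (5, and 3 to 7), other conjugating enzymes, higher (5, and 2 to 5), other carriers, higher (3, and 1 to 3) and lower (2, and 1 to 3), and other P450 genes, higher (1, and 0 to 1, the 0 where a mean of 50 leaves Cyp11a1 untested). With 4-OHT library 1 only, 3 haem genes, 0 cofactor genes, 1 AHR partner or target, 2 PXR and CAR partners and 1 carrier were lower, and 1 AHR partner or target was higher. Depth limits the genes under 10 normalized counts, for which a few reads decide the value.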
